A study of Homo sapiens with 8 samples.

Results

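The response of HCC44 chromatin to ACBI1 was examined from 4 ATAC-seq peak lists, 2 from cells treated under DMSO and 2 from cells treated under ACBI1. Overlapping peaks of these 4 lists were merged wherever they shared 1 bp, which gave 58466 regions, against 69131 when all 8 lists of the series were merged. HCC44 is an established human lung cancer cell line, and the labels give its genotype as WT without naming a gene. Per the labels, the cells of both groups were grown alike and held for 96 h in DMSO, the solvent, or in 1 mM ACBI1. That label is far above the usual range for a degrader and may be a misprint, so the dose is uncertain. Each group had 2 replicates, and the labels do not say whether these were separate cultures, so any spread between them may be technical. The other line of the series, H1975, was treated in the same way with 2 replicates per group and served only for side-by-side values.

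ATAC-seq marks open chromatin by the places where a transposase can insert adapters. SWI/SNF complexes use the ATPases SMARCA4 or SMARCA2 to move nucleosomes aside, and they are best known for keeping enhancers, the switches that lie away from gene starts, open for transcription factors such as AP-1. ACBI1 is a degrader that joins SMARCA2, SMARCA4 and PBRM1, a subunit of one form of the complex, to the VHL ubiquitin ligase. Protein levels were not analysed here, so whether the targets were degraded is not known from these data.

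A region was classed as lost when both DMSO lists and neither ACBI1 list held a peak, as retained when all 4 lists did, as partial when 1 of the 2 ACBI1 lists did, and as gained when only both ACBI1 lists did. Regions more than 1 kb from either end of every protein-coding gene were called distal, and the others were called boundary regions. Each of 19974 protein-coding genes was given the distal DMSO regions, that is those with a peak in both DMSO lists, in its body and within 50 kb of either side. A missing peak is not a measurement of closed chromatin, since listing also depends on read depth, which is unknown here. A peak's −log10 q depends on that depth too, so values from different lists are given side by side and are not compared.

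Stretches of 120 bases, taken from the 250 before a gene start so as to hold the AP-1 letters where there are any, illustrate promoter sequence in lost and retained regions. The first 5 are the strongest lost regions that held a whole RefSeq promoter window (GRCh38.p14, 250 bases before to 50 after a start) with the AP-1 letters TGANTCA, in capitals, on either strand. The last 2 are from genes that kept most of their distal peaks and have no such letters in the stretch. All run 5′ to 3′ on the strand of the gene.
MAN1C1, chr1:25696023-25696142, plus strand: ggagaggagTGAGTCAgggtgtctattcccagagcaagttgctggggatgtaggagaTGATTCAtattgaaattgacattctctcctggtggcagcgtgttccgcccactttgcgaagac
DCLK1, chr13:35855790-35855909, minus strand: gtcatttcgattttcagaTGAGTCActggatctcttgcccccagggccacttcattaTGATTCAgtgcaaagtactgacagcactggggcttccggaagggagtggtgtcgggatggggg
SEPTIN9, chr17:77404957-77405076, plus strand: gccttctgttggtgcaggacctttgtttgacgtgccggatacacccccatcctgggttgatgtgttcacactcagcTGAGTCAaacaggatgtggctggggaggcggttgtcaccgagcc
CPA4, chr7:130293041-130293160, plus strand: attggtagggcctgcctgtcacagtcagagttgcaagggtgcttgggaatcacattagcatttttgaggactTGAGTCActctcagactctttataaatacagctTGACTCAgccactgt
IL17B, chr5:149404241-149404360, minus strand: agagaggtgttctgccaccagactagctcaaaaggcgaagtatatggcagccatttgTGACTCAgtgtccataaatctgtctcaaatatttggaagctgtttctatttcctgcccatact
DNAJB6, chr7:157336884-157337003, plus strand: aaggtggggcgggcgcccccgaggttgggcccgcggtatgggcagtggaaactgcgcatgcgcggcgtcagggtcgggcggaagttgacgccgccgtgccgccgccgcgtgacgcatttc
ZNF213, chr16:3134909-3135028, plus strand: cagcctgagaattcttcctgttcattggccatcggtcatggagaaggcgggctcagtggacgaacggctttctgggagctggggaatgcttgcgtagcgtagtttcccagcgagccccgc
At MAN1C1, a mannosidase gene of the Golgi, the region had a −log10 q of 76.5 and 66.8 in the DMSO lists and no peak in either ACBI1 list. At DNAJB6, the gene of an HSP40 chaperone, the region had a −log10 q of 32.8 and 31.1 under DMSO and 38.1 and 38.7 under ACBI1. The starts of MAN1C1, DCLK1 and SEPTIN9 shown here lie inside the gene, away from its outer end, so their regions counted as distal. These stretches were chosen by class and motif, and they illustrate the classes without testing them.

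The peaks missing after ACBI1 were mainly distal ones. The DMSO samples held 38743 and 38348 distal peaks and the ACBI1 samples 15727 and 14413, a mean of 38546 ± 279 (SD, n = 2) against 15070 ± 929 (SD, n = 2). The difference was −1.36 on the log2 scale, against a pooled SD between replicates of 0.063. Boundary peaks numbered 11604 and 11597 under DMSO and 10586 and 10449 under ACBI1, a difference of −0.14 on the log2 scale against a pooled SD of 0.0094. Both ACBI1 samples lay below both DMSO samples in each count. An exact permutation test, two-sided, gave p = 0.333 for each, which is the smallest value that 6 arrangements of 2 against 2 samples allow, so the design cannot pass a usual threshold. Distal peaks made up 77.0% and 76.8% of the DMSO lists and 59.8% and 58.0% of the ACBI1 lists. With every list cut to its strongest 24862 peaks by −log10 q, which makes the totals equal, the distal difference was −0.17 on the log2 scale.

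Of 33724 distal DMSO regions, 21230 (63.0%) were lost, 2423 (7.18%) were partial and 10071 (29.9%) were retained. Single pairs of 1 DMSO and 1 ACBI1 sample gave between 67.6% and 70.2% lost, with a denominator that needs a peak in only 1 DMSO list. Of 11413 boundary regions, 996 (8.73%) were lost and 10055 (88.1%) retained. Gained regions were few, at 1195 distal and 136 boundary regions. In H1975 cells, 50.2% of 27449 distal DMSO regions were lost and 35.8% retained.

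**Figure D1:**
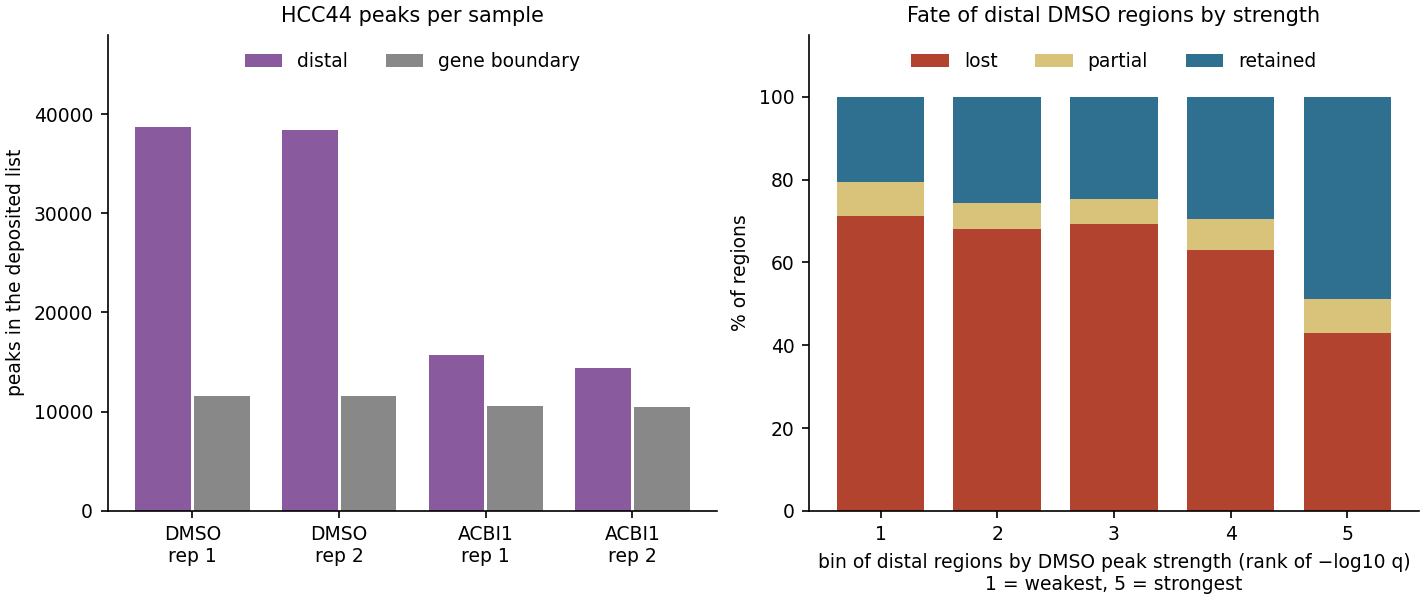
Left, number of distal (purple) and gene boundary (grey) peaks in each HCC44 list, with bars from 0. Right, percent of distal DMSO regions that were lost, partial or retained in each of 5 equal bins of DMSO peak strength. Distal peaks were 38743 and 38348 under DMSO and 15727 and 14413 under ACBI1, and the share lost ran from 71.2% in the weakest to 43.1% in the strongest bin.

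Lost regions were narrower than retained ones in the merged set, with a median width of 590 bp against 924 bp. A retained region joins peaks of 4 lists and a lost one of 2, so these widths are not like for like. They also ranked lower by −log10 q within the DMSO lists, at a median rank of 43.5 against 58.6 on a scale from 0 to 100. By fold enrichment the order was the reverse, at a median rank of 57.8 for lost and 48.6 for retained regions. Cut into 5 equal bins by −log10 q rank, the share lost was 71.2%, 68.1%, 69.3%, 63.1% and 43.1% from the weakest to the strongest. The strongest bin thus stood apart from the other 4. These rates also serve as a yardstick below: the share lost that peak strength alone would give a gene is the mean of the rates of the bins its regions fall in. Strength there means −log10 q only. The bins hold all distal DMSO regions, also the 6255 (18.5%) that lay in no gene window, of which 72.7% were lost. The yardstick thus does not allow for lying near a gene. In 5 bins of fold enrichment the share lost ran the other way, from 55.3% in the lowest to 69.7% in the highest, and for the 50 gene lists described below these bins would give between 58.8% and 63.8% lost.

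Lost regions lay farther from gene ends, at a median of 32386 bp from the nearest end of a protein-coding gene against 18177 bp for retained regions. This distance was also taken from inside genes. The share inside a protein-coding gene was close, at 51.4% and 49.8%. RefSeq promoter windows, those of non-coding genes and of inner starts included, overlapped 458 lost regions (2.16%) and 1575 retained regions (15.6%). Without the 2160 regions that overlapped such a window, 65.8% of the other 31564 were lost and 26.9% retained. Across chromosomes the share lost ran from 41.4% of 981 regions on the gene-dense chromosome 19 to 73.0% of 1317 regions on chromosome 4. By crowding, 64.9% were lost among regions that had no other distal DMSO region within 25 kb, 58.0% among those that had 4 to 6 and 31.6% of the 19 regions that had 7 or more, of which 63.2% were retained.

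Genes differed widely in how much of their surroundings they lost. Of all 19974 genes, 4638 had no distal DMSO region in the window, 11345 had 1 to 4 and 3991 had at least 5. Among these 3991 genes, 938 (23.5%) lost at least 75% of their distal regions and 232 (5.81%) kept at least 75% in all 4 lists. The median gene lost 60.0% and kept 33.3%. Both ACBI1 samples had fewer distal peaks than both DMSO samples around 3687 genes (92.4%), and more around 13 genes (0.326%). Neighbouring genes share regions, so the 938 genes rest on 6036 distinct regions. At a minimum −log10 q of 20, 1023 of 2263 genes (45.2%) lost most. The number that kept most was 357 of 3997 genes without ACBI1 replicate 2, and 45 of 2263 at that minimum. With lists of equal length 134 of 655 genes lost most, 68 kept most and 426 (65.0%) had fewer distal peaks. At the threshold itself, 76 genes lost exactly 75% and the next 6 genes below it lost 73.3%, while 23 genes kept exactly 75% and the next 2 kept 72.7%.

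The genes that lost most were long, with a median length of 100.8 kb against 18.7 kb for the genes that kept most and 58.0 kb for all 3991. Most of those with a promoter peak still had at least 1 listed. A gene with several RefSeq promoter windows was counted by its best-kept one, so its other starts may have lost their peaks. Of 559 genes that lost most and had a DMSO region at a RefSeq promoter window, 533 (95.3%) had at least 1 such region with a peak in all 4 lists. Among the genes that kept most at least 1 promoter was retained in 126 of 133 (94.7%), and among all of them in 2349 of 2464 (95.3%). Counted in this way, the share of genes with a retained promoter was nearly the same in the 3 sets.

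Among the 545 genes with at least 10 distal DMSO regions, 15 genes had the highest share lost, and 10 of these lost every one. They rest on 183 distinct regions, of which 178 were lost and 3 retained, where peak strength alone would give each gene between 58.7% and 69.0% lost. The lost regions and the ranking come from the same lists, so these values describe the genes and test nothing.

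SIPA1L2, of a family that switches off the small GTPase Rap, had 13 and 14 distal peaks under DMSO and 0 and 0 under ACBI1. PDGFB, the gene of the platelet-derived growth factor B chain, had 11 and 12 under DMSO and 0 and 0 under ACBI1. SETBP1, which encodes a binding partner of the SET oncoprotein, had 15 and 11 under DMSO and 0 and 0 under ACBI1. None of these 3 windows kept a distal peak, although SIPA1L2 and SETBP1 each had a retained promoter region. AKAP6, a scaffold for protein kinase A, had 12 and 11 distal peaks and then 0 and 0. PTPRG, a receptor tyrosine phosphatase, had 11 and 11 and then 0 and 0, as did UBE2E2, a ubiquitin-conjugating enzyme. For these 6 genes the DMSO and ACBI1 values did not overlap, as was so for 92.4% of genes in the background.

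SPOCK1, the gene of a secreted proteoglycan, lost all 14 of its distal DMSO regions, and its 15 and 14 peaks under DMSO stood against 2 and 2 under ACBI1. One gained region lay in its window. COLEC12, a scavenger receptor, lost 10 of 10 and had 11 and 11 distal peaks under DMSO and 2 and 2 under ACBI1, with 2 gained regions. At both genes the peaks seen under ACBI1 were therefore outside the regions with a peak in both DMSO lists. They were not all at new places. Without DMSO replicate 2, SPOCK1 lost 93.3% of 15 regions, so at least 1 ACBI1 peak there shared a region with DMSO replicate 1. ATP8A2, a phospholipid flippase, had 10 and 12 and then 0 and 1, and DOCK2, an activator of the GTPase Rac best known from blood cells, had 11 and 10 and then 0 and 1.

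The other 5 genes each kept 1 region in at least 1 ACBI1 list. KLHL29 lost 15 of 16, FTO, an RNA demethylase, lost 14 of 15, and ASAP1, a GTPase-activating protein for Arf, lost 12 of 13. NSMCE2, a SUMO ligase of the SMC5/6 complex, lost 14 of 15. KCNMA1, the pore subunit of the large-conductance calcium-activated potassium channel, lost 14 of 15 and was the 1 gene whose promoter region was lost too, among the 7 of these 15 with a classed promoter region. Its distal peaks numbered 15 and 16 under DMSO and 2 and 1 under ACBI1.

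Strong peaks were among those lost. The strongest lost region of SIPA1L2 (GRCh38 chr1:232538310-232539156, inside the gene) had a −log10 q of 62.7 and 59.5 in the DMSO lists, at a mean rank of 88.9. That of PTPRG (chr3:61894772-61895373, inside the gene) had 40.6 and 42.0. At KCNMA1 a lost region (chr10:77531493-77531923) had 57.8 and 40.5, while the retained one (chr10:77391976-77393196) had 62.1 and 47.2 under DMSO and 12.6 and 14.1 under ACBI1.

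**Figure D2:**
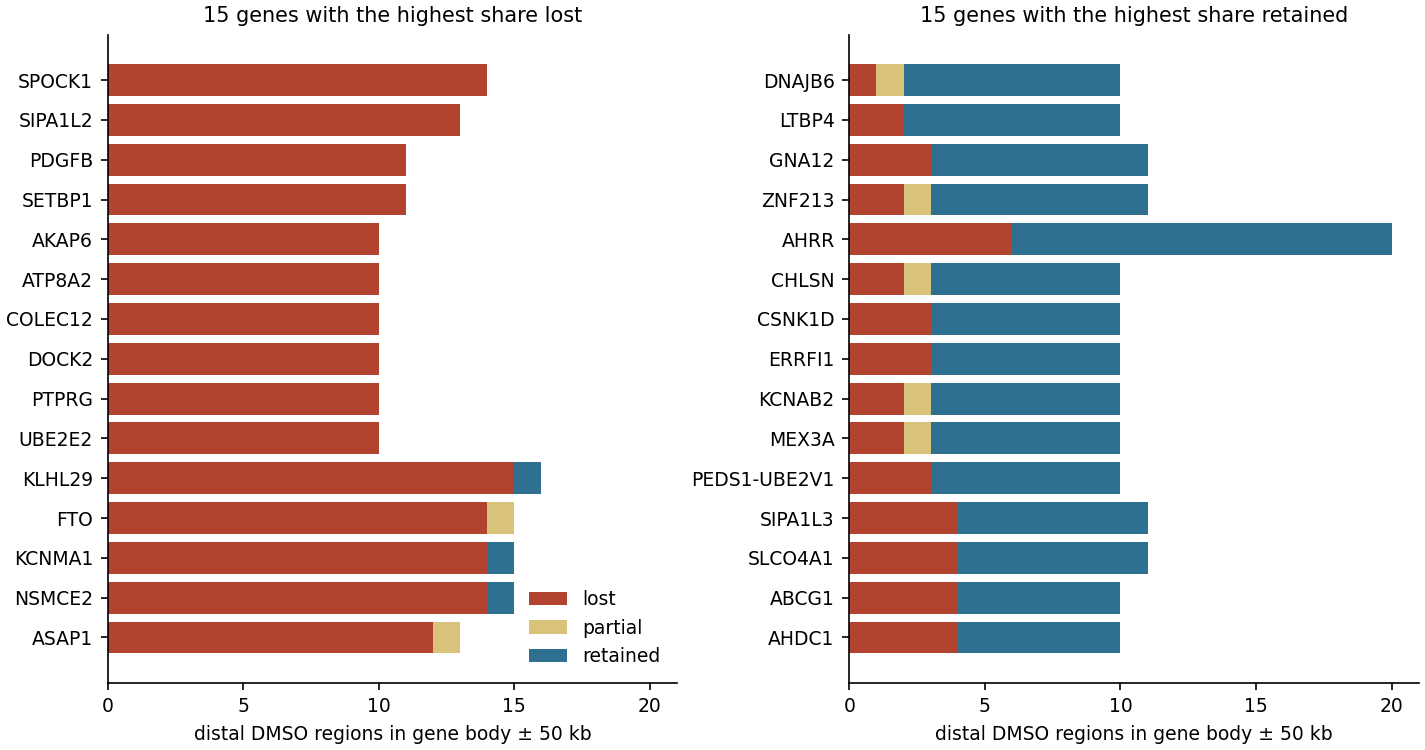
Number of distal DMSO regions in the gene body and 50 kb either side that were lost, partial or retained, for the 15 genes with the highest share lost (left) and the 15 with the highest share retained (right), among genes with at least 10 regions. On the left 10 genes have lost regions only, and on the right the retained share is between 60.0% and 80.0%.

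The opposite end of the ranking was less extreme. Of the 545 genes with at least 10 distal DMSO regions, 147 lost at least 75% and only 2 kept at least 75%, DNAJB6 and LTBP4. The 15 genes with the highest share retained kept between 60.0% and 80.0%, 114 of 164 distinct regions, where strength alone would give each between 27.5% and 39.8%.

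DNAJB6 kept 8 of 10 regions, with 12 and 11 distal peaks in the DMSO lists and 10 and 10 in the ACBI1 lists. LTBP4, a binding protein of latent TGF-beta, kept 8 of 10 with 12 and 10 and then 9 and 9 peaks, and it shares at least 50% of its regions with its neighbour SPTBN4. AHRR, the repressor of the aryl hydrocarbon receptor, had the most regions of these 15 genes: 14 of 20 were retained and 6 lost, with 21 and 20 and then 15 and 15 peaks. AHRR shares at least 50% of its regions with its neighbour EXOC3. Even at these genes both ACBI1 values lay below both DMSO values. Without DMSO replicate 2, DNAJB6 and LTBP4 each kept 66.7%, and at a minimum −log10 q of 20 they kept 33.3% and 62.5%.

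Signalling genes stood in this group too. GNA12, the alpha subunit of a heterotrimeric G protein, kept 8 of 11 regions, and its peaks numbered 13 and 12 under DMSO and 9 and 9 under ACBI1. ERRFI1, a feedback inhibitor of EGFR, kept 7 of 10 with 10 and 10 and then 7 and 7 peaks. CSNK1D, a casein kinase of the circadian clock, kept 7 of 10 with 10 and 10 and then 7 and 8 peaks. SIPA1L3, of the same family as SIPA1L2, kept 7 of 11 with 12 and 15 and then 8 and 9 peaks. SIPA1L2 and SIPA1L3 thus lay at the 2 ends of the ranking. KCNAB2, a potassium channel subunit, kept 7 of 10, and ABCG1, a cholesterol transporter, kept 6 of 10. The strongest retained region of LTBP4 (GRCh38 chr19:40570049-40571046, outside the gene) had a −log10 q of 109 and 109 under DMSO and 62.5 and 56.9 under ACBI1.

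**Figure D3:**
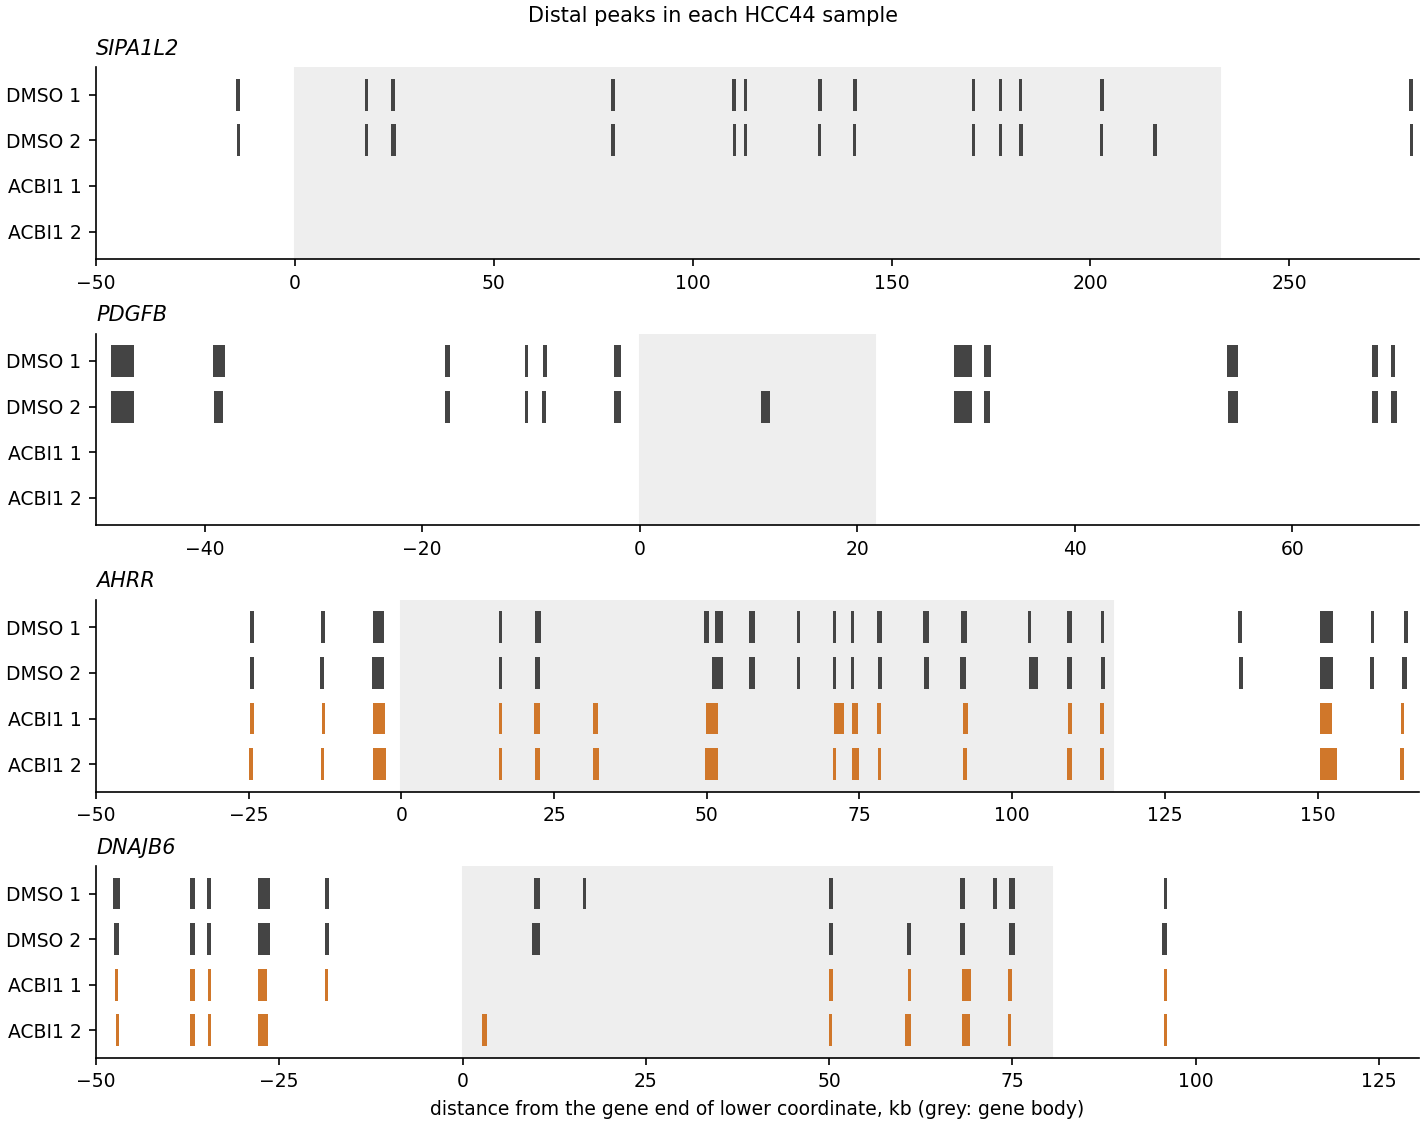
Distal peaks of each HCC44 list around SIPA1L2, PDGFB, AHRR and DNAJB6, as distance in kb from the gene end of lower coordinate, with DMSO in dark grey, ACBI1 in orange and the gene body shaded. Peaks too narrow to see are drawn at a fixed minimum width. SIPA1L2 and PDGFB have 0 distal peaks in both ACBI1 lists, and AHRR and DNAJB6 have 15 and 15 and 10 and 10.

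The 13 genes with more distal peaks after treatment showed small gains on few regions. AP5Z1, a subunit of an adaptor complex, had 5 and 6 distal peaks under DMSO and 9 and 8 under ACBI1, and all 5 of its DMSO regions were retained. NADK, the kinase that makes NADP, had 6 and 7 and then 9 and 8. THRA, a thyroid hormone receptor, had 7 and 6 and then 8 and 8, with 3 gained regions. Gained regions gathered most around TRIO, an exchange factor for Rac, where 6 lay beside 24 DMSO regions, 14 of them retained. Its total was 27 and 25 peaks under DMSO and 23 and 23 under ACBI1, so both ACBI1 values still lay below both DMSO values. KLK7, a kallikrein protease, had no distal DMSO region and 3 gained ones, with 1 and 0 peaks and then 4 and 3. TRIO and KLK7 were picked for their gained regions after the values were seen.

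The genes of the 3 proteins that ACBI1 degrades all kept at least 1 promoter peak. SMARCA2 had 2 distal DMSO regions and kept both, with 2 distal peaks in each of the 4 lists. SMARCA4 lost 6 of 8, with 11 and 8 distal peaks under DMSO and 3 and 2 under ACBI1. PBRM1 lost 3 of 4, with 5 and 4 and then 1 and 1. These are peaks around the genes and say nothing of the proteins. Over 26 SWI/SNF subunit genes, 49.1% of 114 distal regions were lost and 43.9% retained, against 60.7% and 32.0% of the 27469 regions around all protein-coding genes. Within the complex DPF3, a subunit best known from heart and muscle, lost 11 of 12, and ARID1B, a subunit of the BAF form, lost 9 of 16 and kept 6.

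The genes with the most distal regions lost many and kept many. GSE1, whose product is found with a histone demethylase complex, had 45 and 41 distal peaks under DMSO and 22 and 23 under ACBI1, and of 38 regions 18 were lost and 17 retained. RAD51B, a recombination factor, lost 25 of 37, with 39 and 40 and then 10 and 10 peaks. PDE4D, a cyclic AMP phosphodiesterase, lost 21 of 31, with 34 and 33 and then 10 and 11. NAV2, a neuron navigator, lost 21 of 30, with 31 and 33 and then 11 and 10. The last 3 thus lost more regions than GSE1 did. CAMTA1, a calmodulin-binding transcription activator, lost 14 of 30 and kept 12, and 4 gained regions lay in its window.

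Gene families were compared through 50 lists, by the distinct distal DMSO regions in the windows of their members. The share lost was below that of all genes (60.7%) in 38 of the 50 lists. No list was tested, and each is described by its counts beside the same over all genes, where 23.5% of genes with at least 5 regions lost most and 5.81% kept most.

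**Figure D4:**
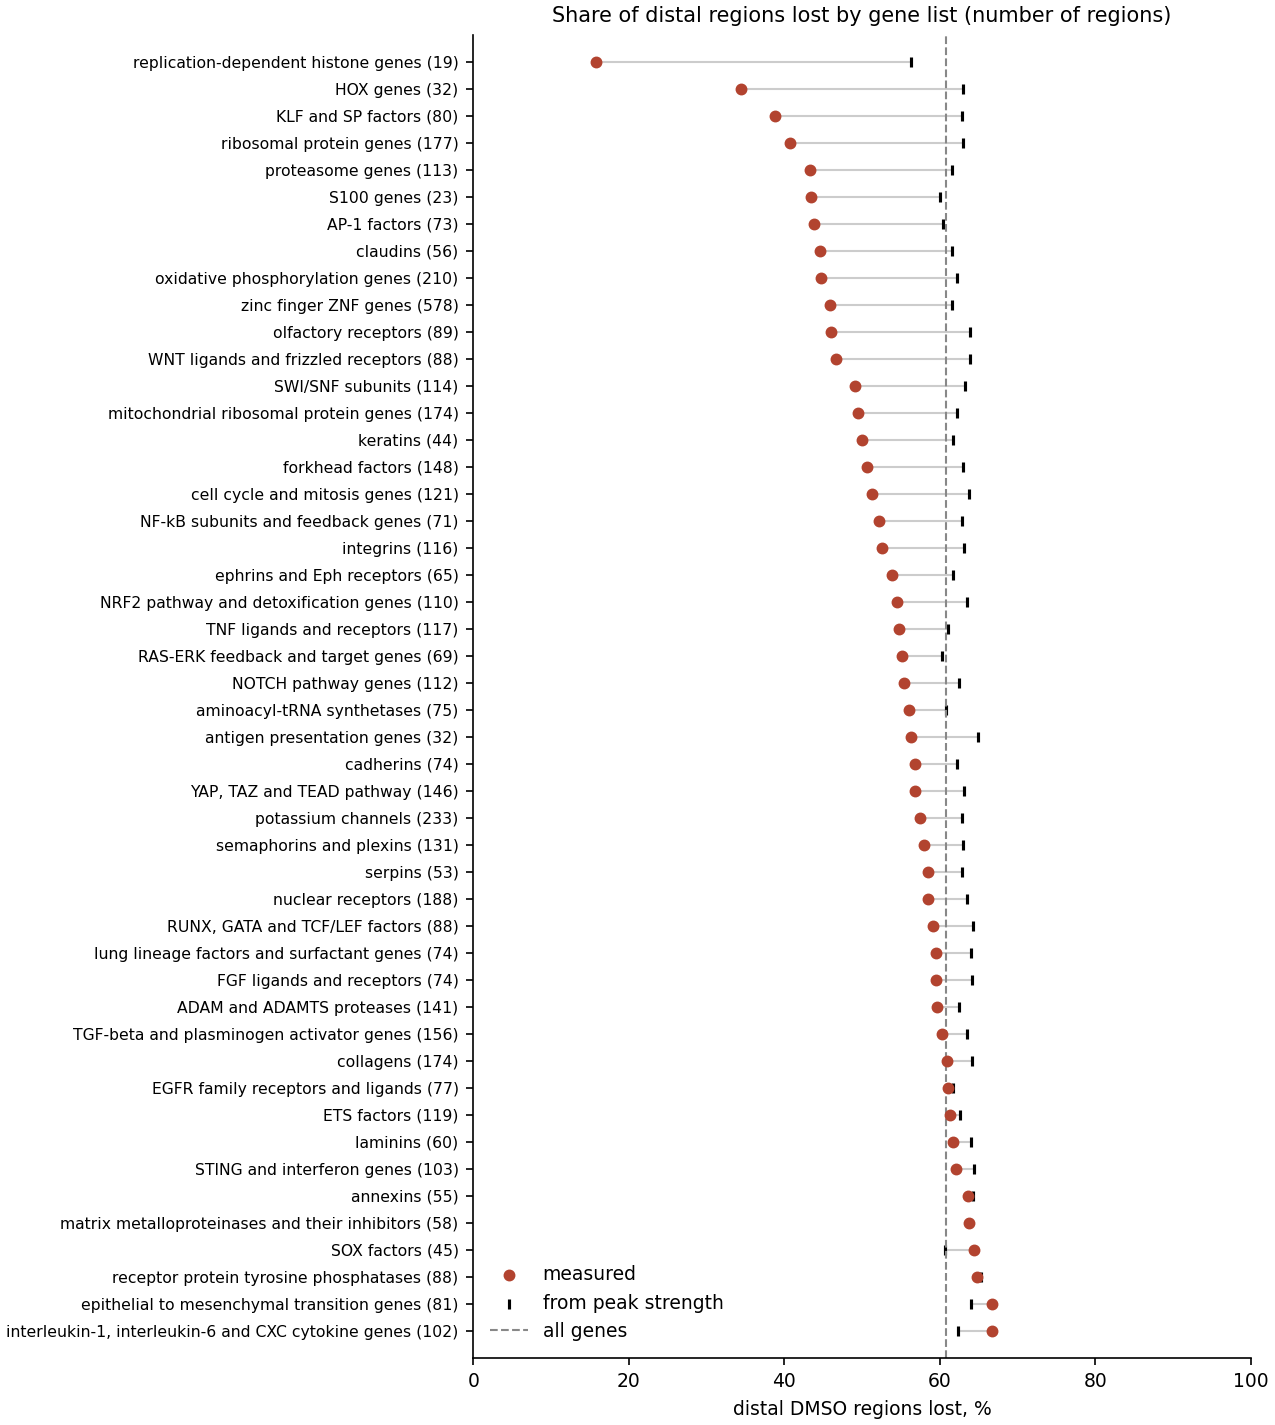
Percent of the distinct distal DMSO regions lost around the members of each gene list with at least 10 such regions, with their number in brackets, for the lists reported. Red points are the measured shares, black ticks the share that peak strength alone would give, and the dashed line the share around all protein-coding genes, 60.7%. Histone, HOX, KLF and SP genes lie lowest, at 15.8%, 34.4% and 38.8%, and cytokine genes and genes of the epithelial to mesenchymal transition highest, both at 66.7%.

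Cytokine genes of the interleukin-1, interleukin-6 and CXC groups, which drive inflammation, stood at the high end. Around these genes 68 of 102 regions (66.7%) were lost and 26 (25.5%) retained, and peak strength alone would give 62.3% lost. Of 14 members with at least 5 regions, 8 lost most and 0 kept most. The windows of some members overlap, as at IL1A and IL1B, so these genes are not independent counts. IL1B, the gene of interleukin-1 beta, lost 8 of 8, with 8 and 8 distal peaks under DMSO and 1 and 0 under ACBI1. CXCL1, a neutrophil chemokine, lost 6 of 7, with 7 and 8 and then 0 and 1, and LIFR, the receptor of leukemia inhibitory factor, lost 8 of 10, with 10 and 11 and then 3 and 2. IL1R1, the interleukin-1 receptor, was the exception among the 5 members with the most regions, with 7 of 12 lost and 5 retained. At IL1A the promoter region was lost too. Within a window of 100 kb either side the list lost 62.2% and all genes 61.4%. In H1975 cells the list lost 44.6% of 74 regions, against 50.2% over all distal DMSO regions of that line.

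STING and interferon genes, which sense DNA and answer to interferon, were close to all genes, with 64 of 103 regions (62.1%) lost and 29.1% retained. Of 8 members with at least 5 regions, 4 lost most and 0 kept most. IRF1, an interferon-induced transcription factor, lost 6 of 8, with 8 and 8 distal peaks and then 2 and 2. PDCD1LG2, which encodes the checkpoint ligand PD-L2, lost 5 of 6, with 6 and 6 and then 1 and 1. IKBKE, a kinase that acts beside TBK1, lost 4 of 5. MX1, an antiviral GTPase, lost 4 of 7 and kept 2. IFNAR1, an interferon receptor chain, lost 2 of 5 and kept 1, with 6 and 5 peaks and then 3 and 3. Within a window of 100 kb either side the share lost of this list was 56.1%, below the 61.4% of all genes there.

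Genes of the epithelial to mesenchymal transition lost 54 of 81 regions (66.7%) and kept 25.9%. SNAI1, a transcription factor that represses E-cadherin, lost 6 of 6, with 6 and 7 distal peaks and then 1 and 1. CDH1, the gene of E-cadherin, lost 6 of 8, with 11 and 8 and then 5 and 3. So did GRHL1, an epithelial transcription factor, with 8 and 8 and then 3 and 3. Loss was thus found around genes of both the mesenchymal and the epithelial side. CLDN4, a tight junction gene, kept 4 of 6. At a minimum −log10 q of 20 the list lost 67.9% and all genes 70.3%, which reverses their order.

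Genes of cell adhesion and its signals varied from member to member. Laminins, the trimers of the basement membrane, lost 37 of 60 regions (61.7%). LAMA3 and LAMC1 each lost 9 of 11 regions, and LAMA5 lost 2 of 8 and kept 4. LAMA3 had 13 and 13 distal peaks under DMSO and 1 and 2 under ACBI1, and LAMA5 had 8 and 8 and then 10 and 7. The laminin list therefore held members of opposite kinds. Receptor tyrosine phosphatases lost 64.8% of 88 regions, where strength alone would give 65.3%. PTPRG lost 10 of 10 and PTPRM 13 of 16, and PTPRJ lost 5 of 9, PTPRE 5 of 8 and PTPRF 4 of 7. Without DMSO replicate 2 the list and all genes both lost 63.4%. In the EGFR family the ligand gene NRG1 lost 13 of 15, with 17 and 18 peaks and then 1 and 3, while EGFR itself lost 7 of 13 and kept 5, and its inhibitor ERRFI1 kept 7 of 10.

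Transcription factor families split as well. AP-1 genes, whose products bind the TGANTCA letters, lost 43.8% of 73 regions and kept 46.6%, where strength alone would give 60.4% lost. FOSB lost 0 of 7 and kept 6, with 7 and 7 distal peaks under DMSO and 8 and 7 under ACBI1. FOSL2 lost 5 of 7, with 8 and 8 and then 3 and 3, and BATF3 lost 7 of 9. Members of a single family thus lay at both ends. ATF3, a stress-induced member, lost 5 of 11 and kept 6. Among ETS factors, ETS2 lost 9 of 9 and ETV6 12 of 13, with 13 and 14 peaks and then 1 and 1, although the list as a whole (61.3% of 119 regions) was close to all genes. The forkhead gene FOXP1 lost 19 of 23 while FOXK1 kept 6 of 8, and THRB, a thyroid hormone receptor, lost 11 of 12. TCF7L2, an effector of the Wnt pathway, lost 11 of 12, with 14 and 13 peaks and then 2 and 2. Its list, of RUNX, GATA and TCF/LEF factors, lost 59.1% of 88 regions, and RUNX1 there lost 6 of 14. Genes of WNT ligands and frizzled receptors lost 46.6% of 88 regions, against 60.7% around all protein-coding genes.

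Housekeeping families and several families of developmental and DNA-binding factors lost less. Ribosomal protein genes lost 40.7% of 177 regions and kept 48.6%, and proteasome genes lost 43.4% of 113. Genes of oxidative phosphorylation lost 44.8% of 210 regions, and mitochondrial ribosomal protein genes 49.4% of 174. Zinc finger genes of the ZNF family, many of them on chromosome 19, lost 45.8% of 578 regions, and KLF and SP factors 38.8% of 80. For these 6 lists, peak strength alone would give between 61.5% and 63.0% lost, close to the 63.0% over all distal regions. Around all protein-coding genes the share lost was 60.7%. PSMD3, a proteasome subunit, lost 0 of 6 and kept 5, with 7 and 6 peaks and then 7 and 8. HOX genes lost 34.4% of 32 regions and kept 56.2%, and HOXA13 kept 6 of 7. HOX genes lie in clusters, so members of that list share regions.

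Replication-dependent histone genes, which lie in clusters and supply histones in S phase, lost least of all 50 lists. Of their 19 distinct distal regions 3 were lost and 16 (84.2%) retained, where strength alone would give 56.3% lost. All 6 members with at least 5 regions kept most, with 24 and 22 distal peaks over the list under DMSO and 21 and 19 under ACBI1. The windows of these 6 genes overlap. H2BC12 and H4C9 each kept 7 of 8. The share lost of the list was 25% without DMSO replicate 2 and 22.7% without DMSO replicate 1.

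Of those 19 regions, 10 held a gene for a transfer RNA and all 10 were retained, as were nearly all distal regions at such genes. Of 113 distal DMSO regions that overlapped a tRNA gene, 0 were lost, 1 was partial and 112 (99.1%) were retained, where peak strength alone would give 36.0% retained. Counted per sample, 138 and 143 of 443 tRNA genes had a distal peak under DMSO and 143 and 154 under ACBI1, so the ACBI1 values were not lower. The regions lay on several chromosomes, with 43 on chromosome 6 and 25 on chromosome 1. Genes for small nuclear RNAs, the RNAs of the spliceosome, showed the same: of 28 regions 0 were lost and 27 retained, and 29 and 29 and then 29 and 28 of 154 genes had a distal peak. Copies of tRNA and snRNA genes are near-identical, so reads may have been placed at the wrong copy. RNA polymerase III transcribes tRNA genes and some snRNA genes.

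Other non-coding genes lay between these classes and all distal regions, of which 29.9% were retained. Transcribed pseudogenes had 62.6% of 356 regions retained and 32.6% lost. Distal regions at miRNA genes were retained in 37 of 66 cases and lost in 23. At lncRNA genes, 58.4% of 6371 regions were lost and 34.5% retained. Retention near the level of tRNA genes was thus seen for snRNA genes but not for these other classes.

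**Figure D5:**
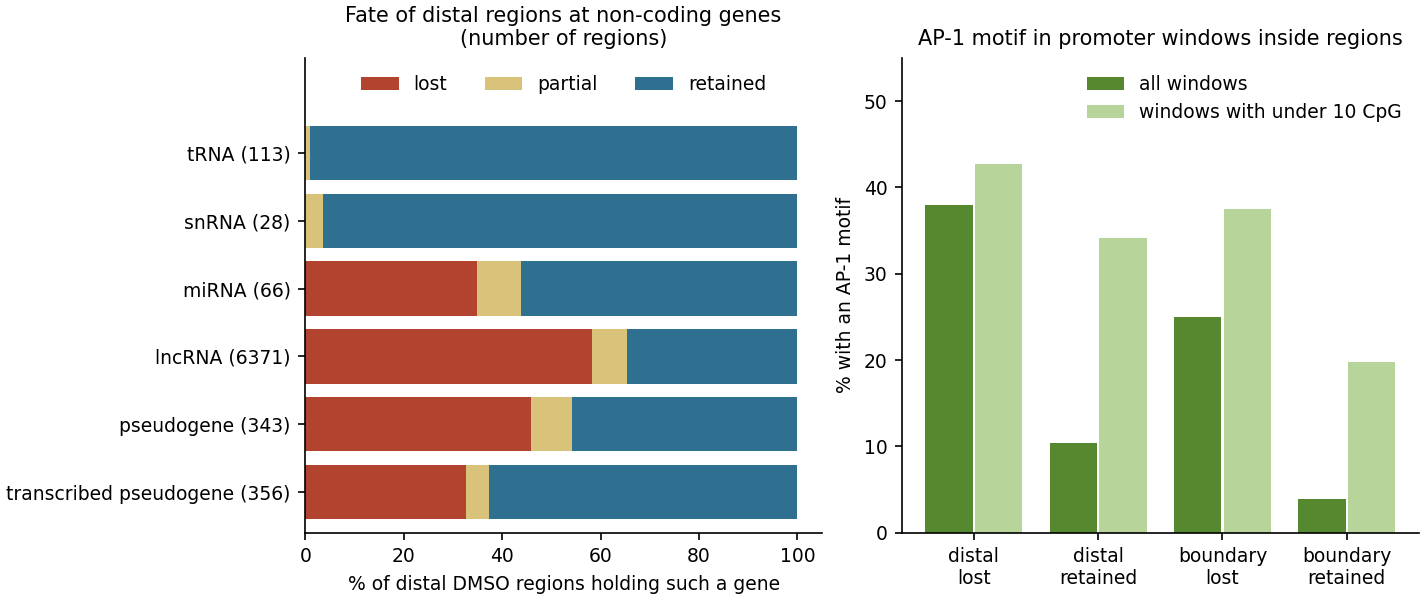
Left, percent of distal DMSO regions lost, partial or retained among those that overlap a non-coding gene of each class, with the number of regions in brackets; tRNA genes have 112 of 113 retained. Right, percent of RefSeq promoter windows lying wholly inside a region that contain the AP-1 letters, by place and class, for all windows and for those with fewer than 10 CpG; the share is 37.9% in lost and 10.4% in retained distal regions.

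Promoter windows inside lost and retained regions differed in sequence. They stand for few of the lost regions, since 2.16% of distal lost regions overlapped such a window. Windows wholly inside a region were taken, 1 per region. The AP-1 letters were found in 37.9% of 211 windows in distal lost regions and in 10.4% of 1266 in distal retained regions, against 7.68% of all 34961 windows. In boundary regions the shares were 25% of 124 lost and 3.94% of 6957 retained. The median number of CpG pairs in a 300-base window was 4 in distal lost and 24 in distal retained regions, and 8 and 29 in boundary regions. Among windows with fewer than 10 CpG the AP-1 letters were in 42.8% of 173 distal lost and 34.2% of 231 distal retained windows. Over all 15216 windows with so few CpG the share was 12.9%, below both. The gap between lost and retained distal windows was thus smaller among windows poor in CpG. In boundary regions of that kind the shares were 37.5% and 19.8%. Partial distal regions had the letters in 38.3% of 60 windows, and in 54.3% of the 35 with fewer than 10 CpG. A match to these letters is a description of the window and does not show that a factor binds there.

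The lost boundary regions were mostly not at known starts. Of 996 such regions, 244 (24.5%) overlapped the promoter window of a protein-coding gene, against 7625 of 10055 retained ones (75.8%).

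Lost regions followed each other over long stretches. Read along the chromosomes through distal DMSO regions only, 252 unbroken runs held 10 or more lost regions, and 7 held 10 or more retained ones. The longest, of 31 lost regions over 1.11 Mb on chromosome 2 (GRCh38 chr2:236175194-237283740), spans ASB18, DRC11, the chemokine scavenger receptor ACKR3 and COPS8, with 34 and 35 distal peaks under DMSO and 3 and 3 under ACBI1. A run of 28 on chromosome 5 reaches from GRAMD2B to CHSY3 and holds FBN2, the gene of fibrillin-2, with 33 and 35 and then 1 and 2 peaks. A run of 25 on chromosome 3 spans FHIT and PTPRG. Both of the longest retained runs held 17 regions. The first, on chromosome 6 (chr6:26420713-27158372), spans butyrophilin and histone genes and 10 of its regions hold a tRNA gene, with 17 and 18 and then 18 and 18 peaks. The second surrounds MYC, with 18 and 18 and then 19 and 23 distal peaks, and its regions were very strong, at a median −log10 q rank of 98.0. Since 63.0% of regions were lost, long lost runs are more common than retained ones whatever the order, and the runs were picked after the values were seen.

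H1975, whose samples share no library with HCC44, was set beside it. Over the 2374 genes with at least 5 distal DMSO regions in both lines, the median gene lost 57.1% in HCC44 and 40.0% in H1975, and Pearson's r of the 2 shares was 0.57, as a description across genes that share regions with their neighbours. Of 498 such genes that lost most in HCC44, 113 (22.7%) did so in H1975, against 211 of all 2374 (8.89%), and the 113 are 53.6% of those 211. Of 147 that kept most in HCC44, 84 (57.1%) did so in H1975, against 289 of all 2374 (12.2%), and the 84 are 29.1% of those 289. PDGFB lost 11 of 11 regions in HCC44 and 3 of 11 in H1975, where 4 were retained. AHRR went the other way, with 14 of 20 retained in HCC44 and 6 of 8 lost in H1975. ZNF213 was alike, with 8 of 11 retained in HCC44 and 10 of 11 in H1975. The difference between the lines was not tested.

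Markers of an epithelial lung line were present in part. Of 6 epithelial genes, 5 had a boundary peak in all 4 samples, and CDH1 lacked one in ACBI1 replicate 1. Of 3 lung lineage genes NAPSA, an aspartic protease of lung epithelium, had one in all 4, SFTPB in the 2 DMSO samples only, and NKX2-1 in DMSO replicate 2 only. Of 7 genes of immune, endothelial and fibroblast cells, COL1A1 had one in all 4, and 1 immune gene had one in DMSO replicate 2 only. PTPRC, PECAM1, VWF and DCN had none in any.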

How the data were processed

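ATAC-seq peak lists of HCC44 cells were analysed, 1 list per sample, so peaks had been called on each sample and not on pooled replicates. The submitters' processing notes name BWA and hg38, and the peak caller is not given in the sources used here. Each deposited list has 9 columns and no header. In the deposited lists column 7 holds the authors' fold enrichment of a peak as a ratio over background, and columns 8 and 9 hold the authors' p-value and q-value as −log10 values. The score that the authors deposited in column 5 had no use here. The depth in reads is unknown, so no counting interval was given, and fold and −log10 q were used only to rank or filter peaks within a list.

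Peaks on every sequence in the lists were merged and classed per line as the report describes. Genes and the shares per chromosome were limited to chromosomes 1 to 22 and X, so the few regions elsewhere counted as distal. Gene positions came from a RefSeq table of GRCh38.p14, which gives no strand, and promoter sequences from the RefSeq promoter table of that build, which is not complete; no sequence of chromosome 8 was considered for printing. Peak numbers were compared by an exact permutation test on the log2 scale. Shares and counts of genes have no test. Gene lists that the text does not describe appear only in the plot of lists, which holds those with at least 10 regions; 1 list and some genes are left out of text and plot. The members and gene lists were chosen with earlier results of these data known.

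Named genes were the 15 with the highest share lost and the 15 with the highest share retained among genes with at least 10 distal DMSO regions, with ties settled by number of regions and then by symbol, and genes sharing at least 50% of their regions with one already named left out. The rule further took SMARCA2, SMARCA4 and PBRM1, the 5 genes with most distal regions, and in each list described up to 5 members with most regions. Genes with gained regions, genes with more peaks and the genes of the runs were named after their values were seen. Alternatives were a minimum −log10 q of 20, boundaries of 5 kb, equal list lengths, merging at 1 kb, windows of 25 and 100 kb, at least 10 regions, each replicate left out in turn, and a replicate block. Leaving out regions at any RefSeq promoter window was added after seeing the data. The functions were tested on simulated data. Python 3.11.15, numpy 2.4.6, pandas 2.3.3 and scipy 1.17.1 were used, and matplotlib 3.10.9 for figures.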

Additional observations from a re-analysis of the deposited data

How the results depend on the processing

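Distal peaks were fewer with ACBI1 under every alternative run. The 15 genes with the highest share lost all stayed at 75% lost or more in the runs made for them. These were a minimum −log10 q of 20, a window of 25 kb, leaving out each replicate, and leaving out promoter windows. The last was added after seeing the data. These genes were picked for a high share lost, and leaving out an ACBI1 list can hardly lower it. The −log10 q minimum raised that share over all distal regions. Lists of equal length, which lowered it over all distal regions, were not run for these genes. Whether they depend on list length was thus not tested. Of the 15 genes with the highest share retained, 0 kept 75% or more without DMSO replicate 2, and at a minimum −log10 q of 20 their median share retained was 50%, against 21.5% of all distal regions. The log2 difference in peak number was between −1.42 and −1.29 without 1 replicate. The labels share replicate numbers but do not say what they mark. Rank differences between replicates 1 and 2 correlated at 0.14 between DMSO and ACBI1 over 20126 retained regions, and with a replicate block the difference was −1.36 with an exact permutation p of 0.5, the smallest that 4 arrangements allow. Regions lost and retained made up 72.4% and 21.5% at a minimum −log10 q of 20, 65.0% and 27.9% with boundaries of 5 kb, 54.8% and 37.9% with lists of equal length, and 65.8% and 26.9% without promoter windows. Without 1 replicate the share lost lay between 64.9% and 67.7% and the share retained between 27.3% and 34.6%.

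Genes that lost most numbered 1023 of 2263 at a minimum −log10 q of 20, 134 of 655 with lists of equal length, 582 of 1872 in windows of 25 kb, 1805 of 8821 in windows of 100 kb and 147 of 545 with at least 10 regions, and between 1101 and 1312 without 1 replicate. Genes that kept most numbered 45 of 2263 at the higher −log10 q, 95 of 2457 with boundaries of 5 kb, 68 with equal lists, 61 and 491 in the 25 kb and 100 kb windows, 2 with at least 10 regions and 143 of 3472 without promoter windows, and between 185 and 357 without 1 replicate, with the highest without ACBI1 replicate 2. Genes with fewer distal peaks numbered 2217, 2361, 426, 1795 and 7976 at the higher −log10 q, with 5 kb boundaries, with equal lists and in the 25 kb and 100 kb windows, and between 3743 and 4640 without 1 replicate. Merging at 1 kb gave 62.8% lost, 921 genes that lost most and 231 that kept most, close to the values reported. The histone, HOX, KLF and SP, ribosomal protein, proteasome, AP-1, oxidative phosphorylation and ZNF lists lost a smaller share than all genes under each alternative run for lists, and the cytokine list a larger one. For the cytokine list the gap was small in windows of 100 kb, at 62.2% against 61.4%. The cause of these shifts was not tested.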
